A study of Homo sapiens with 6 samples.

Results

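Genes for integrins, the basement membrane and collagens were followed in MCF10A cells after knockdown of YAP and TAZ. The set is a list of 47 gene symbols, and all 47 were found among the 23459 genes of the count table. They comprise 5 integrin alpha subunits, 5 integrin beta subunits, 8 laminins and nidogens, 7 basement membrane collagens, 6 fibrillar and other collagens, 6 matrix glycoproteins, 6 hemidesmosome and adhesion linkers and 4 crosslinking and remodelling enzymes.

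The question of the study was how JUN, an AP-1 factor, acts on the genes that YAP and TAZ control. MCF10A is an untransformed human mammary epithelial cell line, kept here in medium with horse serum, insulin, hydrocortisone, cholera toxin and EGF. All cells were lipofected with siRNA at 20 nM, 3 libraries (siCtrl) with a non-targeting siRNA and 3 libraries (siYAP/TAZ) with siRNA against YAP and TAZ, and no transgene or edited allele is named for either group. Reads came from the 3′ ends of polyadenylated RNA, so a count stands for a transcript end rather than for transcript length. The labels give neither the time after transfection nor whether replicates were separate cultures, so p-values measure the spread between these libraries, which may be technical.

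Integrins are receptors made of an alpha and a beta subunit that bind matrix outside the cell and link to the cytoskeleton inside it. In stratified and glandular epithelia, basal cells rest on a basement membrane, a sheet of laminin and type IV collagen networks joined by nidogens and perlecan, and hold to it through hemidesmosomes. Fibrillar collagens, fibronectin, fibrillins and their crosslinking enzymes build the matrix beyond that sheet. YAP and TAZ are transcriptional coactivators that bind DNA mainly through TEAD factors, and matrix stiffness and adhesion are known to control their activity.

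Library totals were 3175149 to 4317286 counts. A count of 0 allowed up to 3 counts, or 0.68 to 0.992 CPM (counts set to 1 common total per library, with TMM factors for differences in composition), a limit that covers counting error only because reads carried no molecular identifiers. The siCtrl replicate 2 and the siYAP/TAZ replicate 2 have titles and genotype entries of the opposite group, and the sample descriptions, which match the column names, were followed. YAP1 stood at 189, 204 and 210.3 CPM in siCtrl replicates 1, 2 and 3 and at 116, 118 and 112 CPM in the siYAP/TAZ ones. WWTR1, which encodes TAZ, stood at 109, 109 and 102 CPM and at 70.5, 67.1 and 59.8 CPM. For both targeted genes each siYAP/TAZ library was below each siCtrl library, so both libraries with disagreeing labels lay with the group of their description. In a principal component analysis siCtrl replicate 2 lay at 7.15 on the first component (48.4% of variance), away from the other siCtrl libraries at -42.6 and -34.9 and nearer the siYAP/TAZ libraries at 9.77 to 33.7. All 8 mammary epithelial markers were measurable, with sums of 1391.9 to 1786.7 CPM in siCtrl and 1208.7 to 1377.1 CPM in siYAP/TAZ. Of 7 fibroblast markers, COL1A2 and COL3A1 had 0 counts in every library, and PDGFRB and LUM had 0 to 3 counts. The others were measurable, with mean levels in siCtrl and siYAP/TAZ of 161 and 167 CPM for PDGFRA. Those of ZEB1 were 37.9 and 33.5 CPM, and those of TWIST1 29.2 and 38.1 CPM. The summed level of 7 fibroblast markers was 206 to 262 CPM in siCtrl and 219 to 254 CPM in siYAP/TAZ, that of 5 endothelial markers 5.17 to 6.78 and 7.93 to 15.2 CPM, and that of 5 leukocyte markers 2.52 to 5.87 and 2.72 to 4.95 CPM. The epithelial sums were lower and the endothelial sums higher in every siYAP/TAZ library, and their part in the results was not tested. Most of the epithelial sum was KRT5, with means of 912 and 661 CPM, and of the 8 markers 5 had negative and 3 positive log2 fold changes, from -0.53 for KRT17 to 0.58 for TP63. The endothelial difference lay in PECAM1 (1.32 and 5.88 CPM) and KDR (0.481 and 1.85 CPM), while CDH5, VWF and TEK had like means in both groups.

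Of the 47 genes, 41 passed the low-count filter. Counts of the remaining 6 were 0 to 12 per library, and they were not tested: NID1, COL18A1, COL1A1, COL5A1, LOXL4 and ADAMTS1. COL1A1, the chain of the main fibrillar collagen of stroma, had 4, 9 and 10 counts in the siCtrl libraries, against 11, 3 and 12 counts in siYAP/TAZ. The matrix protease ADAMTS1 had 2 counts in each siCtrl library and 0 in each siYAP/TAZ library, which lies within the limit of 3 counts. Neither gene could be compared at this depth.

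Among the tested genes, 3 were lower in siYAP/TAZ at an adjusted p under 0.05 (7.32%, against 1.22% of the 12510 genes tested) and 0 were higher (against 0.743%). The 3 were COL8A1, COL12A1 and EFEMP1. The list was chosen with earlier results of these data known, so shares here and below describe it and do not test it. The same edgeR test gave 10 of the 41 lower at an unadjusted p under 0.05 (against 9.27% of all genes). It gave 4 of the 41 higher (against 8.4%). DESeq2, with 42 genes of the set tested, called 5 lower (11.9%, against 2.48% of all genes) and 1 higher (2.38%, against 1.89%). The median log2 fold change of the 41 genes was 0.03, and that of all genes was 0.00, so the set as a whole was centred where all genes were.

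In the fit blocked on the replicate number, 7 of the 41 were lower (17.1%, against 5.44% of all genes) and 4 were higher (9.76%, against 4.66%). Without siCtrl replicate 2, 7 were again lower (17.1%, against 6.22% of all genes) and 4 higher (9.76%, against 6.08%). Both fits called COL8A1, COL12A1, EFEMP1, ITGB1, LAMB3 and FBN2 lower and COL4A5 and LOX higher. The block added ITGA2 to the lower and ITGB6 and COL7A1 to the higher genes, and leaving out the library added LOXL2 to the lower and ITGA5 and ITGB8 to the higher ones. With both libraries of disagreeing labels left out, 5 were lower (12.2%, against 4.64% of all genes) and 3 higher (7.32%, against 4.65%). Those were COL8A1, COL12A1, EFEMP1, ITGB1 and FBN2 on the lower side and COL4A5, LOX and ITGA5 on the higher side.

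All 3 siYAP/TAZ libraries lay below every siCtrl library for 10 of the 41 genes (24.4%, against 11.1% of all genes), and above them for 5 (12.2%, against 11% of all genes). The 10 were ITGA2, ITGA3, ITGB1, LAMB3, COL4A1, COL8A1, COL12A1, FBN2, EFEMP1 and PLEC, and the 5 were ITGA5, LAMA5, COL4A5, COL17A1 and COL5A2. In the plot of fold changes by role, the integrin and basement membrane genes lie on both sides of 0.

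**Figure D1:**
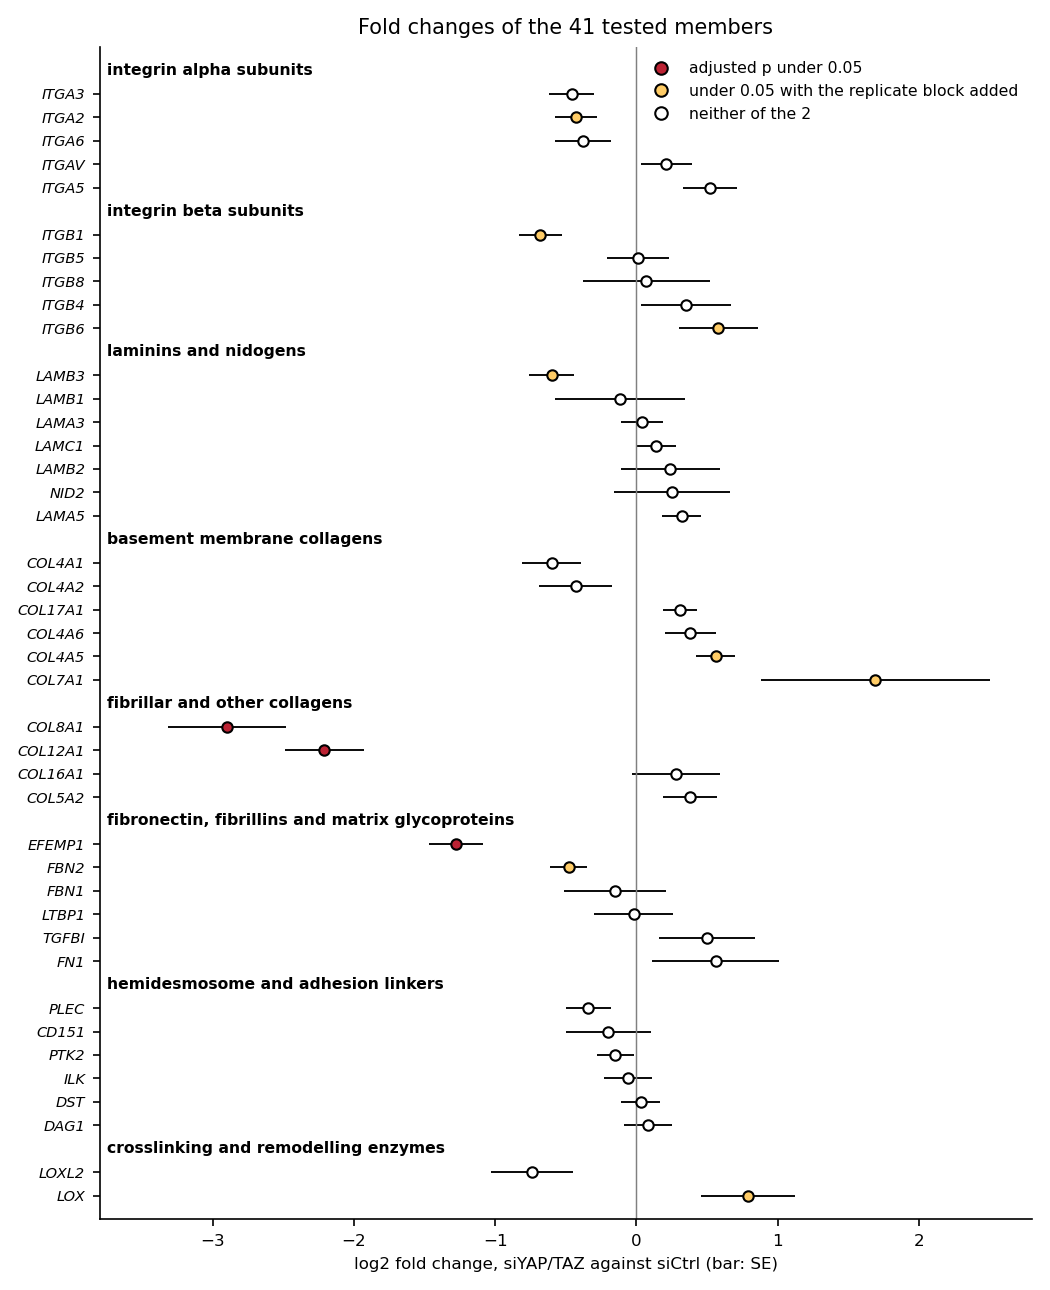
Log2 fold change of siYAP/TAZ against siCtrl (horizontal axis, edgeR, bars are standard errors) for the 41 tested genes, grouped by role. COL8A1 at -2.90, COL12A1 at -2.21 and EFEMP1 at -1.28 passed the threshold (red), and 8 further genes passed it once the replicate block was added (yellow).

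Sequence at the start sites is shown before the values. Upstream sequence (250 bases before a start and 50 after it) was taken from the RefSeq promoter table of build GRCh38.p14, where 36 of the 47 genes matched with 53 windows. No entry was found for ADAMTS1, CD151, COL1A1, COL5A2, COL8A1, EFEMP1, ITGA3, ITGB4, LOXL2, PLEC and PTK2. The letters GGAATG, the core that TEAD factors bind, were searched on both strands and occurred in 5 of the 53 windows (9.43%), those of COL12A1, DST, FBN1, ITGA5 and ITGB1, and in 14.0% of 35116 windows of all genes. The letters TGANTCA, the AP-1 core, occurred in 4 of the windows (7.55%), those of DST, ITGA5, LAMA3 and LAMB3, and in 7.71% of all windows. GGAATG ends with the letters TG that open TGANTCA, so matches of both can overlap, and a match describes these letters only.

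The windows of COL12A1 (chr6:75206054-75206303), ITGB1 (chr10:32958231-32958480) and ITGA5 (chr12:54419267-54419516) are shown because each holds GGAATG while their fold changes differed in sign. All are on the minus strand, are written 5′ to 3′ up to the base before the start, and carry GGAATG in capitals. The TGANTCA match counted for ITGA5 does not lie wholly within the bases shown, so it is not marked.
COL12A1: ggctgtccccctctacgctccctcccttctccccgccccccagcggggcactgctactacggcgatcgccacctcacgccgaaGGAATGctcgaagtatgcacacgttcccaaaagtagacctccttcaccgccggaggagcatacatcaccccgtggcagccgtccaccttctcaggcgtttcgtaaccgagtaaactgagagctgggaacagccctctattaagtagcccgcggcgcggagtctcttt
ITGB1: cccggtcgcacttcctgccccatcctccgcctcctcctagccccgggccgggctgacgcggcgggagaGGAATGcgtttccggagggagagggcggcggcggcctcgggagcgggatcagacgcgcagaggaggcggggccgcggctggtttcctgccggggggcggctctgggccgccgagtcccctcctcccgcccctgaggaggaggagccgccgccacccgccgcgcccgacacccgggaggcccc
ITGA5: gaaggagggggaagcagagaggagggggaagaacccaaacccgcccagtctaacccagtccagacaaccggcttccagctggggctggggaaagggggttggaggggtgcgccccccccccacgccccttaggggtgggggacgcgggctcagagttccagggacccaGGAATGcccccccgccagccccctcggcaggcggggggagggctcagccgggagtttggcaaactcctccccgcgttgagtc
The motif began 167 bases before the start of COL12A1, 182 bases before that of ITGB1 and 82 bases before that of ITGA5. COL12A1 and ITGB1 had lower values in every siYAP/TAZ library and ITGA5 had higher ones.

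Type IV collagen genes lie head to head in pairs that share the sequence between their starts. COL4A2 and COL4A1 start 126 bases apart on chromosome 13 (chr13:110307158-110307283), and COL4A5 and COL4A6 start 379 bases apart on chromosome X, where the 250 bases before COL4A5 (chrX:108439588-108439837) are given. Both are shown on the plus strand because the members of a pair had fold changes of the same sign, and neither holds GGAATG or TGANTCA, so no letter is in capitals.
COL4A2 and COL4A1: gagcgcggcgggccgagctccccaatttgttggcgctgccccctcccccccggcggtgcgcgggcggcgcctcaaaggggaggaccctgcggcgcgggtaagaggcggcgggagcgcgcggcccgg
COL4A5 and COL4A6: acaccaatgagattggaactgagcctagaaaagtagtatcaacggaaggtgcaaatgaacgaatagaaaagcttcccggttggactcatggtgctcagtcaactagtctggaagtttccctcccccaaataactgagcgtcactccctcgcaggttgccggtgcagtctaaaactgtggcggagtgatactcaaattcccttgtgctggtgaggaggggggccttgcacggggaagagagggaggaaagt
Values of the pairs are given with the basement membrane collagens.

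Among integrin alpha subunits, which set ligand preference, 0 of 5 passed the test. At an unadjusted p under 0.05, 2 of the 5 were lower (against 9.27% of all genes) and 1 higher (against 8.4%). The median log2 fold change of the 5 was -0.38. ITGA2, whose product pairs with the beta 1 subunit to bind collagen, had 153, 127 and 143 CPM in siCtrl replicates 1, 2 and 3 and 109, 86.9 and 118 CPM in the siYAP/TAZ replicates. Each siYAP/TAZ library was below each siCtrl library. Its log2 fold change was -0.43 ± 0.15 (SE) with an adjusted p of 0.182. The replicate block gave -0.44 ± 0.12 with an adjusted p of 0.0392.

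ITGA5, whose product pairs with beta 1 as the fibronectin receptor, stood at 30.7, 41 and 31.7 CPM in siCtrl, against 43.3, 45.0 and 59.8 CPM in siYAP/TAZ. The groups did not overlap, with siCtrl replicate 2 the highest of its group. Its log2 fold change was 0.52 ± 0.19 with an adjusted p of 0.200, and 0.66 with an adjusted p of 0.0430 without siCtrl replicate 2. ITGA3, a laminin receptor subunit, had a log2 fold change of -0.46 ± 0.16 (adjusted p = 0.174). ITGA6, which pairs with beta 4 in hemidesmosomes, had -0.38 ± 0.20 (adjusted p = 0.363), and ITGAV, the partner of several beta subunits at RGD motifs, had 0.21 ± 0.18 (adjusted p = 0.597).

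ITGB1 encodes the beta 1 subunit shared by most collagen, laminin and fibronectin receptors. It had 327, 326 and 397 CPM in siCtrl, against 199, 199.7 and 255 CPM in siYAP/TAZ. Every siYAP/TAZ library was below every siCtrl library, and siCtrl replicate 2 was level with replicate 1. Mean levels were 350 ± 40.3 CPM (SD, n = 3) and 218 ± 32.2 CPM (SD, n = 3), or 62.3% of control. The log2 fold change of -0.68 ± 0.15 had an adjusted p of 0.0560, just outside the threshold. The replicate block gave 0.00289, DESeq2 gave 0.00516 and the fit without siCtrl replicate 2 gave 0.0132. The range over all alternatives was 0.00289 to 0.905.

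The other beta subunits did not share this pattern. ITGB6, an epithelial subunit that binds latent TGF-beta with alpha V, had 29.9, 21.6 and 41.2 CPM in siCtrl, against 42.6, 33.4 and 63.4 CPM in siYAP/TAZ. The groups overlapped, but each siYAP/TAZ library was above the siCtrl library of its number. At 0.58 ± 0.28 on the log2 scale the adjusted p was 0.318, and the block gave 0.59 ± 0.15 (adjusted p = 0.0308). ITGB8, another alpha V partner, had 88.7, 372 and 127 CPM in siCtrl, against 145, 254 and 216 CPM in siYAP/TAZ. The siCtrl replicate 2 was the highest of the 6 libraries and the other siCtrl libraries were the lowest, so the log2 fold change was 0.07 ± 0.45 (adjusted p = 0.957) with that library and 0.92 (adjusted p = 0.0277) without it. ITGB4, the hemidesmosomal subunit, had 0.35 ± 0.32 (adjusted p = 0.619), and ITGB5 had 0.01 ± 0.22 (adjusted p = 0.988).

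Of the laminins, the cross-shaped trimers that start a basement membrane, and nidogens, 0 of 7 tested passed the test. At an unadjusted p under 0.05, 1 of the 7 was lower (against 9.27% of all genes) and 0 were higher (against 8.4%). The median log2 fold change was 0.14. LAMB3, the beta 3 chain of the laminin that anchors hemidesmosomes, had 304, 339 and 345 CPM in siCtrl, against 190.2, 195 and 266 CPM in siYAP/TAZ. The groups did not overlap, and the level was 65.9% of control. It differed by -0.60 ± 0.16 on the log2 scale (adjusted p = 0.0918), by -0.61 ± 0.12 with the replicate block (adjusted p = 0.00962), and by -0.58 without siCtrl replicate 2 (adjusted p = 0.0445).

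LAMA3, which encodes the alpha chain of that trimer, had 159.7, 211 and 217 CPM in siCtrl, against 191, 207 and 206 CPM in siYAP/TAZ, groups that overlapped, with a log2 fold change of 0.04 ± 0.15 (adjusted p = 0.924). The ratio of LAMB3 to LAMA3 counts within a library, a measure chosen after the values were seen, was 1.90, 1.60 and 1.59 in siCtrl and 0.995, 0.942 and 1.29 in siYAP/TAZ. The lowest siCtrl ratio was above the highest siYAP/TAZ ratio.

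LAMB1 encodes the laminin beta 1 chain and was among the most abundant genes of the set. It had 283, 1256 and 505 CPM in siCtrl, against 418, 796 and 671 CPM in siYAP/TAZ. As with ITGB8, siCtrl replicate 2 was the highest of the 6 libraries. The log2 fold change was -0.12 ± 0.46 (adjusted p = 0.922) and turned to 0.10 with the replicate block and to 0.67 (adjusted p = 0.15) without that library. LAMA5, LAMB2, LAMC1 and NID2 differed by 0.32, 0.24, 0.14 and 0.25 on the log2 scale, and their adjusted p lay between 0.284 and 0.798.

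The basement membrane collagens, of which 6 of 7 were tested, gave 0 calls. At an unadjusted p under 0.05, 1 of the 6 was lower (against 9.27% of all genes) and 2 were higher (against 8.4%). The median log2 fold change of the 6 was 0.35. The head-to-head pairs had fold changes of opposite sign to each other. COL4A1 and COL4A2, the chains of the type IV collagen found in nearly every basement membrane, had 24.4, 21.9 and 29.9 CPM and 43.9, 39.2 and 68.6 CPM in siCtrl. In siYAP/TAZ they had 13.8, 17.8 and 19.0 CPM and 27.0, 42.0 and 44.9 CPM. COL4A1 was lower in each siYAP/TAZ library than in any siCtrl library, whereas the COL4A2 groups overlapped.

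COL4A5 and COL4A6, chains of the type IV collagens of more restricted tissues, were on the other side. COL4A5 had 212, 210.5 and 223 CPM in siCtrl, against 283, 299 and 369 CPM in siYAP/TAZ, and COL4A6 had 86.2, 83.0 and 114 CPM and 103, 117 and 150.1 CPM. Each siYAP/TAZ library exceeded each siCtrl library for COL4A5, and COL4A6 overlapped only through siCtrl replicate 3. The log2 fold changes were -0.60 ± 0.21 for COL4A1 (adjusted p = 0.194), -0.43 ± 0.26 for COL4A2 (adjusted p = 0.426), 0.56 ± 0.14 for COL4A5 (adjusted p = 0.0778) and 0.38 ± 0.18 for COL4A6 (adjusted p = 0.309). Only COL4A5 of these passed with the block (adjusted p = 0.0125) or without siCtrl replicate 2 (adjusted p = 0.0368).

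The ratio of COL4A5 to COL4A1 counts within a library, chosen after the values were seen, was 8.67, 9.61 and 7.46 in siCtrl and 20.4, 16.8 and 19.4 in siYAP/TAZ. That of COL4A6 to COL4A2 was 1.96, 2.12 and 1.66 in siCtrl and 3.83, 2.78 and 3.35 in siYAP/TAZ. Neither ratio overlapped between the groups. For COL4A5 to COL4A1 this follows from the values above, as neither gene overlapped between the groups. The siCtrl replicate 2 had the highest siCtrl value of each ratio without reaching the siYAP/TAZ libraries. The plot of chains by library shows these genes beside the laminin chains.

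**Figure D2:**
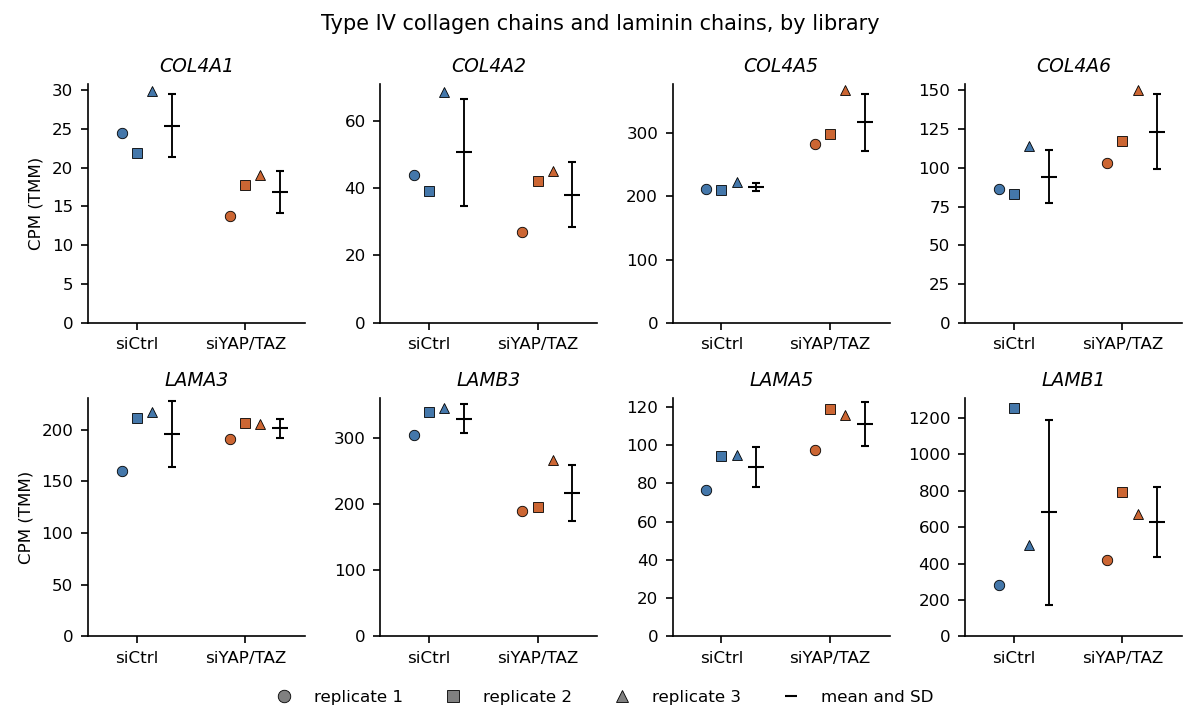
CPM of type IV collagen chains (top) and laminin chains (bottom) in each library of siCtrl (blue) and siYAP/TAZ (orange), with the mean and SD of 3 libraries beside the points; symbols give the replicate number. COL4A5 lies higher and LAMB3 lower in every siYAP/TAZ library, while for LAMB1 siCtrl replicate 2 stands apart at 1256 CPM.

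COL7A1 encodes the collagen of anchoring fibrils below the basement membrane and was near the detection limit. It had 0.574, 0.309 and 4.02 CPM in siCtrl, against 2.49, 3.64 and 10.9 CPM in siYAP/TAZ. The first and second siCtrl libraries lay under the limit that a count of 0 allows, and siCtrl replicate 3 lay above every siYAP/TAZ library but one. Its log2 difference was 1.69 ± 0.81 (adjusted p = 0.312) and 1.85 ± 0.46 (adjusted p = 0.0300) with the block. COL17A1, a transmembrane collagen of hemidesmosomes, had 111, 114 and 123 CPM in siCtrl, against 136, 142 and 154 CPM in siYAP/TAZ. The groups did not overlap, but the log2 fold change of 0.31 ± 0.12 did not pass (adjusted p = 0.229).

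The lowest fold changes of the set were in fibrillar and other collagens. There, 2 of 4 tested genes were called lower (against 1.22% of all genes). COL8A1 is a short-chain, network-forming collagen (GRCh37 chr3:99357319-99518070, plus strand). It had 70.7, 134 and 193 CPM in siCtrl, against 8.61, 21.2 and 24.2 CPM in siYAP/TAZ, or 13.6% of control. The siCtrl libraries spread widely, yet the lowest was above the highest siYAP/TAZ library. The log2 fold change was -2.90 ± 0.42 with an adjusted p of 0.0138, and the block gave an SE of 0.15 (adjusted p = 1.35e-05). In bulk RNA, fewer expressing cells and less RNA per cell cannot be told apart.

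COL12A1 encodes a collagen that decorates the surface of fibrils (GRCh37 chr6:75794042-75915983, minus strand). It had 37, 31.8 and 57.0 CPM in siCtrl, against 8.16, 7.27 and 11.7 CPM in siYAP/TAZ. All 3 siYAP/TAZ libraries were far below the siCtrl libraries, and the mean fell from 42.0 ± 13.3 to 9.04 ± 2.34 CPM (SD, n = 3), or to 21.6% of control. Its log2 fold change was -2.21 ± 0.28 with an adjusted p of 0.00948. COL5A2, a minor chain of fibrillar collagen, had 16.4, 15.4 and 16.6 CPM in siCtrl, against 19.9, 22.8 and 20.4 CPM in siYAP/TAZ, groups that did not overlap, and its log2 fold change of 0.38 ± 0.19 did not pass (adjusted p = 0.328). COL16A1 had a log2 fold change of 0.28 ± 0.31 (adjusted p = 0.696).

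EFEMP1, which encodes the elastic-fibre protein fibulin-3, was the 1 gene called lower of 6 matrix glycoproteins (against 1.22% of all genes). Its position is GRCh37 chr2:56093102-56151274, minus strand. It had 85.3, 123 and 137 CPM in siCtrl, against 41.2, 52.2 and 49.0 CPM in siYAP/TAZ. The groups did not overlap, the level was 41.2% of control, and the log2 fold change was -1.28 ± 0.19 with an adjusted p of 0.0151. FBN2, a fibrillin of microfibrils, had 165, 138 and 159.6 CPM in siCtrl, against 111, 114 and 106 CPM in siYAP/TAZ. Its siYAP/TAZ libraries lay close together below all siCtrl libraries. Its log2 difference of -0.48 ± 0.13 had an adjusted p of 0.0888, or 0.0296 with the block and 0.0155 without siCtrl replicate 2.

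FN1 encodes fibronectin, the ligand of the ITGA5 and ITGB1 receptor. It had 60.9, 35.2 and 101 CPM in siCtrl, against 139, 38.7 and 112 CPM in siYAP/TAZ. Replicate 2 was the lowest of both groups and the groups overlapped, with a log2 fold change of 0.56 ± 0.45 (adjusted p = 0.566). TGFBI, a secreted integrin ligand, had 0.50 ± 0.34 (adjusted p = 0.486). FBN1 had -0.15 ± 0.36 (adjusted p = 0.870), and LTBP1, which tethers latent TGF-beta to microfibrils, had -0.02 ± 0.28 (adjusted p = 0.983).

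Leaving out single libraries cost the called genes their calls. Without siCtrl replicate 3, the highest siCtrl library for COL8A1, COL12A1 and EFEMP1, their adjusted p were 0.0725, 0.0573 and 0.0925. That edgeR fit called 0 genes of the set in either direction, against 0.0788% of all genes lower and 0.0473% higher. At an unadjusted p under 0.05 it gave 7 of 41 lower and 5 of 41 higher (against 5.88% and 5.46% of all genes). COL8A1 and EFEMP1 also missed the threshold without siYAP/TAZ replicate 2 (0.0505 for both) or siYAP/TAZ replicate 3 (0.0752 and 0.108). Over the 6 fits that each left out 1 library, log2 fold changes were -3.20 to -2.52 for COL8A1, -2.43 to -1.92 for COL12A1 and -1.46 to -1.14 for EFEMP1. In the 3 fits that cost calls, neither of the targeted genes YAP1 and WWTR1 passed, and WWTR1 also missed the threshold without replicate 1 of either group.

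**Figure D3:**
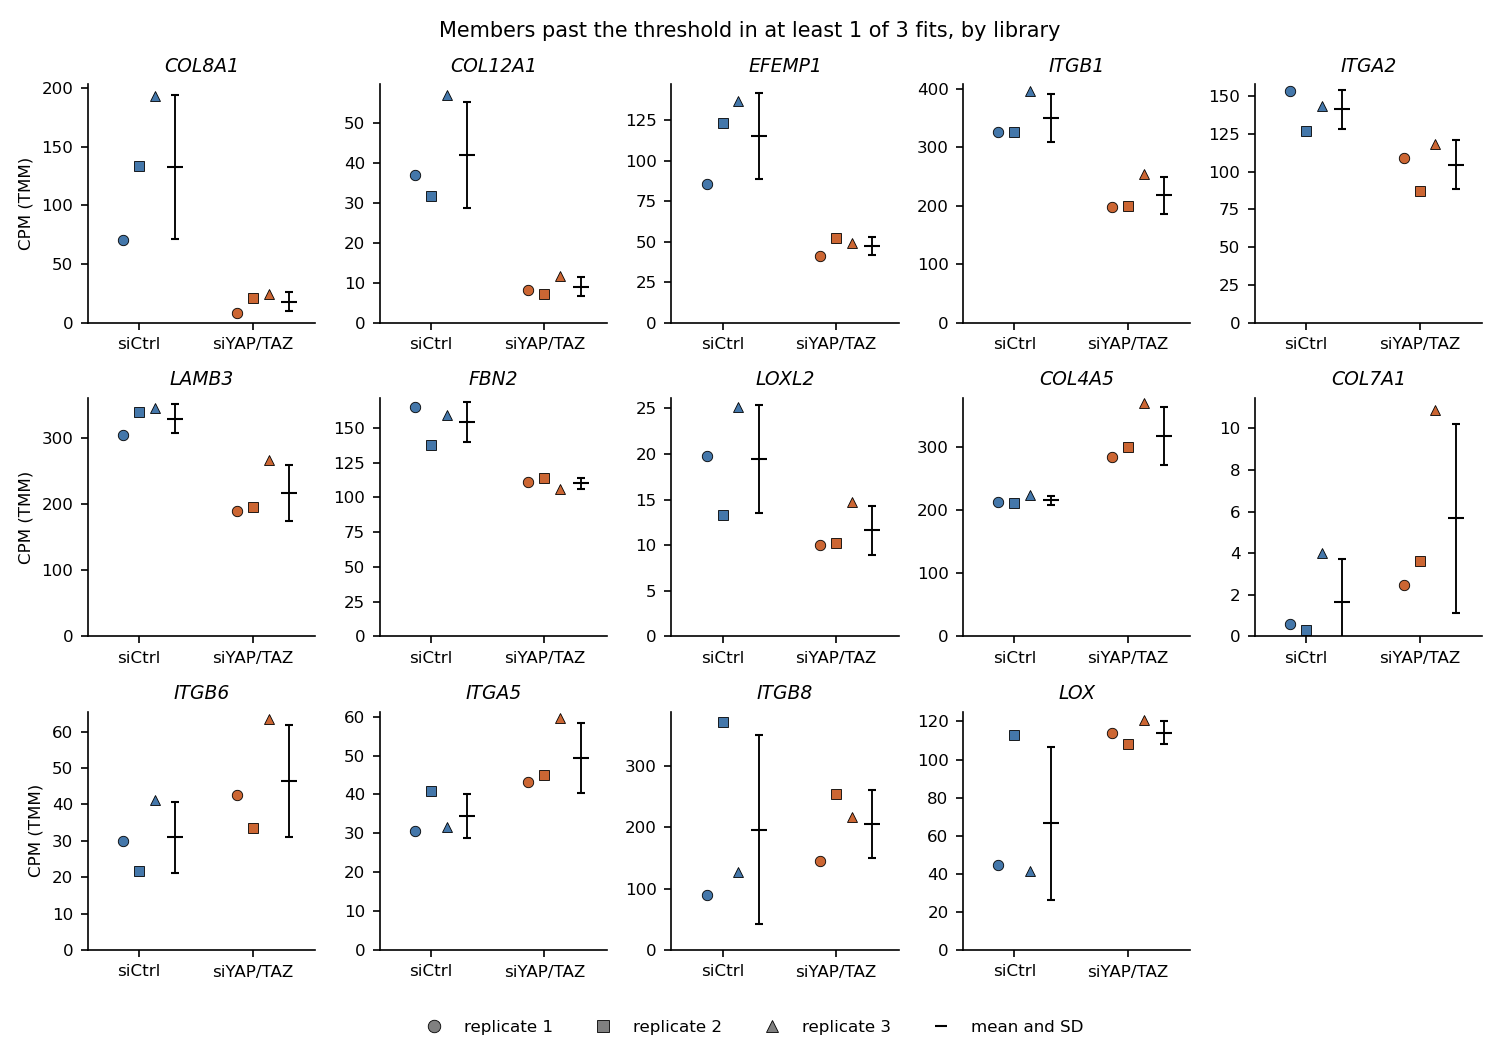
CPM by library (vertical axes start at 0) for the 14 genes of the set past adjusted p 0.05 without the block, with it, or without siCtrl replicate 2, in siCtrl (blue) and siYAP/TAZ (orange), with the mean and SD of 3 libraries; symbols give the replicate number. The first 8 panels hold genes lower in siYAP/TAZ, from COL8A1 at 13.6% of control, and the last 6 hold genes with higher means, where siCtrl replicate 2 is the top siCtrl library for ITGA5, ITGB8 and LOX.

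The hemidesmosome and adhesion linkers, which tie integrins to keratins, actin and signalling, gave 0 calls among 6 tested genes. At an unadjusted p under 0.05, 0 were lower (against 9.27% of all genes) and 0 higher (against 8.4%). Log2 fold changes of the 6 ran from -0.34 to 0.08 with a median of -0.11. DST, whose epithelial form binds keratins in hemidesmosomes, was the most abundant with 408, 514 and 503 CPM in siCtrl, against 485, 472 and 495 CPM in siYAP/TAZ. The siYAP/TAZ libraries lay within the siCtrl range, and the log2 fold change was 0.03 ± 0.14 (adjusted p = 0.942). PLEC, a plectin that links hemidesmosomes to keratins, had 94.5, 94.4 and 96.7 CPM in siCtrl, against 62.8, 72.7 and 91.1 CPM in siYAP/TAZ. The groups did not overlap, though siYAP/TAZ replicate 3 was near the siCtrl libraries, and the log2 fold change was -0.34 ± 0.16 (adjusted p = 0.303).

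The tetraspanin CD151 had a log2 fold change of -0.20 ± 0.30, the focal adhesion kinase PTK2 -0.15 ± 0.13, the dystroglycan gene DAG1 0.08 ± 0.17 and the integrin-linked kinase ILK -0.06 ± 0.17. ILK overlaps TAF10 on the opposite strand, with an ILK to TAF10 count ratio of 0.811 to 0.883 in every library, and CD151 overlaps POLR2L, with a ratio of 0.198 to 0.449. NID2 (6 to 21 counts) likewise overlaps RTRAF (247 to 361 counts) on the opposite strand. LOX overlaps SRFBP1, LAMA5 overlaps ADRM1 and LAMB1 overlaps DLD, also on opposite strands. COL4A1 and COL4A2 overlap on opposite strands only at their starts, away from the 3′ ends that the reads came from. LOXL2 overlaps ENTPD4 on the same strand. Whether the counting used strand is not given in the sources used here, so the values of these genes are uncertain where reads could have been assigned to a neighbour.

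Of 4 crosslinking and remodelling enzymes, 2 were tested and neither passed. Lysyl oxidase, encoded by LOX, crosslinks collagen and elastin, and had 44.5, 113 and 41.7 CPM in siCtrl, against 114, 108 and 120.5 CPM in siYAP/TAZ. The siCtrl replicate 2 lay at the level of the siYAP/TAZ libraries and the other siCtrl libraries were well below. On the log2 scale LOX differed by 0.79 ± 0.33 (adjusted p = 0.257), by 0.92 ± 0.25 with the block (adjusted p = 0.0457) and by 1.41 without siCtrl replicate 2 (adjusted p = 0.00058). LOXL2, a related oxidase, had 19.8, 13.3 and 25.1 CPM in siCtrl, against 9.97, 10.2 and 14.7 CPM in siYAP/TAZ. The groups overlapped through siCtrl replicate 2 and siYAP/TAZ replicate 3, and the log2 fold change of -0.74 ± 0.29 (adjusted p = 0.224) was -0.95 (adjusted p = 0.0344) without siCtrl replicate 2. LOX and LOXL2 therefore had opposite signs.

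Pairs of equal replicate number were compared as log2 ratios of CPM. Of the 41 tested genes, 14 were lower in all 3 pairs (34.1%, against 22.8% of all genes) and 11 were higher in all 3 (26.8%, against 23.3%). In 11 genes (26.8%, against 25.3% of all genes) the second pair had the sign opposite to both other pairs: ITGAV, ITGB4, ITGB5, ITGB8, LAMB1, LAMB2, LAMC1, COL4A2, TGFBI, ILK and LOX. The siCtrl replicate 2 was the highest library for 6 of the 41 genes (14.6%, against 18.1% of all genes) and the lowest for 8 (19.5%, against 18.5%). It lay within the siYAP/TAZ range for 13 genes (31.7%, against 40.4% of all genes).

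**Figure D4:**
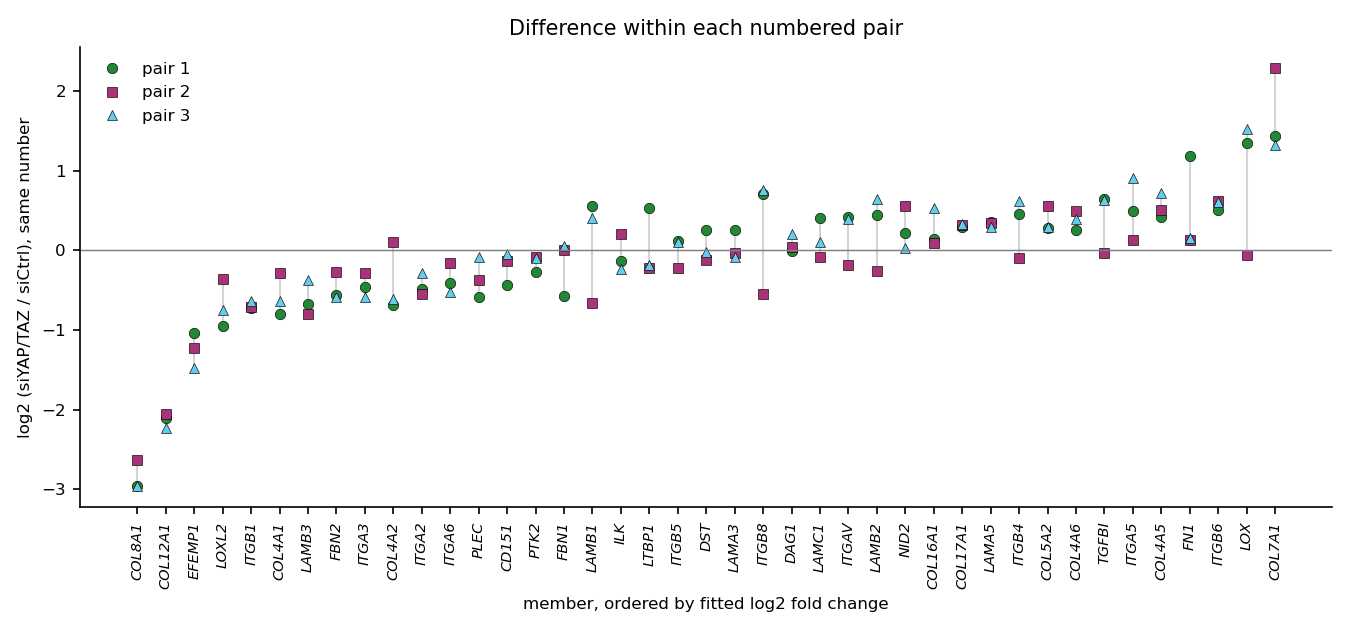
Log2 ratio of siYAP/TAZ to siCtrl CPM within each of the 3 numbered pairs (vertical axis) for the 41 tested genes, ordered by fitted fold change. The 14 genes lower in all pairs lie wholly under 0, the 11 higher in all pairs wholly over it, and in 11 genes the second pair differs in sign from both others.

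A wider list of adhesion and matrix genes outside the set held 98 genes, of which 58 were tested. That list, too, was chosen with earlier results of these data known. In it 3 were lower (5.17%, against 1.22% of all genes) and 2 higher (3.45%, against 0.743%) at an adjusted p under 0.05. The median log2 fold change was -0.18. ITGA1, whose product is the other main collagen-binding partner of beta 1, had 68.1, 88.3 and 65.6 CPM in siCtrl, against 34.7, 40.7 and 39.2 CPM in siYAP/TAZ. The groups did not overlap, and the log2 fold change was -0.96 ± 0.16 (adjusted p = 0.0228). ITGB2, the leukocyte integrin beta subunit, fell from a mean of 8.67 to 1.24 CPM (-2.76 ± 0.36, adjusted p = 0.0101). Its siYAP/TAZ libraries held 6, 3 and 5 counts. Sums of the 5 leukocyte markers overlapped between the groups, but 0 of these markers passed the low-count filter. A part of leukocytes in the ITGB2 value was not tested. NTN4, a netrin that binds laminin, fell from 14.6 to 5.09 CPM (-1.49 ± 0.29, adjusted p = 0.0354).

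LAMA2, the alpha chain of the muscle-type laminin, rose from 13.7 to 27.3 CPM (0.99 ± 0.19, adjusted p = 0.0313). HSPG2, which encodes the proteoglycan perlecan, rose from 18.1 to 38.3 CPM (1.08 ± 0.21, adjusted p = 0.0350). By class, the calls were 2 lower among 6 tested integrins and 1 lower and 2 higher among 9 basement membrane genes. The 5 collagens, 14 collagen-processing genes, 7 microfibril and crosslinking genes and 17 focal adhesion genes tested gave 0 calls by edgeR. At an unadjusted p under 0.05 these 4 classes gave 0, 4, 1 and 3 lower and 0, 0, 1 and 1 higher genes. Of all genes, 9.27% were lower and 8.4% higher at that threshold. With the replicate block the whole list gave 7 lower (12.1%, against 5.44% of all genes) and 3 higher calls (5.17%, against 4.66%). Leaving out any single library other than siCtrl replicate 2 left 0 or 1 calls in each direction. Over all genes those fits called 0.0788% to 0.866% lower and 0.0473% to 0.488% higher. Leaving out siCtrl replicate 2 gave 7 lower (12.1%, against 6.22% of all genes) and 3 higher (5.17%, against 6.08%).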

How the data were processed

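The deposited table gives whole-number counts, summed by Entrez gene and not normalised. The submitters' processing notes name cutadapt 4.2, Bowtie2 2.3.5.1 and hg19. The methods describe counting overlaps with genes in R for RNA-Seq in general. The annotation and the strand setting for these libraries are not given in the sources used here.

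Symbols came from the RefSeq table of GRCh38.p14 (23308 of 23459 IDs matched, with 99.66% of counts), used for names and upstream sequence only. Gene coordinates are GENCODE lifted to GRCh37, the coordinates of hg19. Groups and replicate numbers followed the sample descriptions. No libraries were identical.

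The test was edgeR's quasi-likelihood test (edgeR 4.0.16 in R 4.3.3, with limma 3.58.1) on these counts, after TMM scaling and edgeR's own filter on low counts, with group as the only term. Benjamini-Hochberg adjustment covered all 12510 genes tested (99.55% of counts), with a threshold of 0.05. The main edgeR fit, without the block, was run on simulated counts of the tested genes with known fold changes. Those simulated libraries were independent, and the alternatives were not simulated. SE values are those of log2 fold changes, derived from the F statistic, and log2 ratios of pairs used a prior count of 2.

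There were 15 alternatives: another tool (DESeq2 1.42.0), scaling by RLE or by library size alone, filtering on a mean count of 50 or on nothing, a robust dispersion, the replicate block, each library left out, groups by title, and both libraries with disagreeing labels left out. Deviations from group means correlated across genes between libraries of equal number, and r was 0.42 for replicate 1, 0.35 for replicate 2 and 0.13 for replicate 3. All exceed 0.1, the cut used, though replicate 3 lay near it, so the numbers, from the description field, were taken as pairs. The main test did not use the pairs and called 3 lower and 0 higher of the set. The fit with the replicate block, which used them, called 7 lower and 4 higher.

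Genes were named by a rule. Values in every library are given for genes past the threshold, with or without the block or without siCtrl replicate 2, and for the most abundant gene of a class with none, and others were added for their role or pair. Members and lists were chosen with earlier results of these data known.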

Additional observations from a re-analysis of the deposited data

How the results depend on the processing

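Of all genes, 152 were lower and 93 higher. DESeq2 gave 328 and 250, no low-count filter 299 and 257, the replicate block 680 and 583, and both libraries with disagreeing labels left out 591 and 592. Of the set, 3 were lower and 0 higher, against 5 and 1 with DESeq2, 7 and 4 with the block and 5 and 3 with both libraries out. Of the wider list, 3 were lower, against 1 with a mean of at least 50 counts, 7 with the block and 6 with both libraries out. With groups by title, edgeR called 0 genes of any of these, in either direction (at an unadjusted p under 0.05, 242 lower and 222 higher of all genes, 0 and 1 of the set, 2 and 1 of the wider list). Leaving out 1 library gave 10 to 798 lower and 6 to 781 higher genes, 0 to 7 lower and 0 to 4 higher genes of the set, and 0 to 7 lower and 0 to 3 higher genes of the wider list. The highest came without siCtrl replicate 2 and the lowest, some of them tied, without siCtrl replicate 3. COL8A1, COL12A1 and EFEMP1 lost their calls with groups by title, at log2 fold changes of -0.79, -1.01 and -0.37 (adjusted p = 0.905, 0.898 and 0.906), and COL8A1 had adjusted p of 4.86e-12 to 0.905 over all alternatives, COL12A1 2.92e-09 to 0.898 and EFEMP1 3.01e-06 to 0.906. DESeq2 also called ITGB1 (adjusted p = 0.00516) and LAMB3 (0.0274) lower and COL4A5 (0.0288) higher. ITGB1 passed as well with no filter (0.0236) and robust dispersion (0.0491).

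Signs turned, in each case without a call, for ITGB5 with library size alone (-0.01), for LAMB1 with the block (0.10), by title (0.57) and with both libraries out (0.47), for NID2 by title (-0.02), and for LTBP1 with the block (0.04), by title (0.12) and with both libraries out (0.07). Over single libraries left out, log2 fold changes that turned ran from -0.05 to 0.57 for ITGB4, -0.23 to 0.19 for ITGB5, -0.28 to 0.92 for ITGB8, -0.09 to 0.12 for LAMA3, -0.49 to 0.67 for LAMB1, -0.03 to 0.49 for NID2, -0.40 to 0.16 for FBN1, -0.27 to 0.31 for LTBP1, -0.07 to 0.09 for DST, -0.54 to 0.02 for CD151 and -0.13 to 0 for ILK. The causes were not tested. ITGB8 (0.92) and LAMB1 (0.67) had their highest values without siCtrl replicate 2. The block changed no call other than those given for the set. With 3 libraries a group and 3175149 to 4317286 counts, genes of a few counts could not be tested.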
